A study of Homo sapiens with 33 samples.

Results

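The PUM2 pool holds 1599 designed oligonucleotide tiles from 23 source RNAs, each carried by 22 barcodes, and 173 of these tiles (10.8%) come from the mRNA of PRKDC. They were taken by name, as every tile whose name before the colon is PRKDC, and carry the numbers 1 to 173 and 3806 of the 35178 barcodes in the pool. No other source RNA has more tiles. HEK293T, an established human cell line of embryonic kidney origin, received the pool with no protein added, and the cells were harvested after 48 hours and fixed with 0.1% formaldehyde for 10 minutes. The IP group holds 3 libraries of RNA recovered with an antibody against PUM2, and the Input group holds 3 libraries of RNA from such cells without precipitation. The libraries of each group carry the letters A, B and C in the deposited counts. The tiles are transfected fragments read by their barcodes and not the cell's own PRKDC mRNA. No mock precipitation was analysed here, so recovery with PUM2 and recovery by any precipitation cannot be told apart. The pool holds designed sequences, so markers of the cell line could not be read from it.

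PRKDC encodes the catalytic subunit of DNA-dependent protein kinase, a very large kinase that joins the Ku proteins at broken DNA ends and is required for repair by end joining. PUM2 is a Pumilio protein of the PUF family. It recognises short single-stranded elements that begin with UGUA, mostly in the 3′ ends of mRNAs, and recruits deadenylase complexes that lower the stability and translation of its targets. In a tiled mRNA, fragments with such an element are candidates for recovery with the protein. The sequences of the tiles and their positions in the mRNA were not used here, so a tile number is a name, and whether consecutive numbers overlap in sequence is not known from the names.

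The IP libraries held 15986799 to 17727926 reads and the Input libraries 29433144 to 35092298. PRKDC tiles took 13.1%, 12.6% and 13.7% of the reads in IP libraries A, B and C, against 15.3%, 15.4% and 15.7% in Input libraries A, B and C. Each share has a 95% Wilson interval of at most 0.0163 percentage points to either side, which covers counting error only. PCR reads without molecular identifiers are not independent molecules, and whether identifiers were used is not given in the sources used here. The means were 13.1 ± 0.515% in IP and 15.5 ± 0.204% in Input (SD, n = 3 each), and the groups did not overlap (exact permutation test, two-sided, p = 0.1, the smallest that 3 against 3 libraries allow). After TMM scaling, which corrects for a few tiles taking many reads, the groups overlapped. Scaled CPM are reads in proportion to the library's total multiplied by its TMM factor, so the scaled totals differ between libraries. The factors were 0.907 to 0.940 in IP and 1.07 to 1.11 in Input. On this scale PRKDC tiles held 142656, 139309 and 145354 CPM in IP. They held 142257, 143936 and 141999 CPM in Input, a ratio of IP to Input of 0.998 (exact permutation p = 1). PRKDC tiles are among the tiles that set the TMM factors, so their scaled sum is not independent of the scaling. All CPM values and fold changes below are on the TMM scale.

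A small number of PRKDC tiles stood out from a body of tiles close to Input. In edgeR's quasi-likelihood test 12 of the 173 tiles were called higher in IP (adjusted p under 0.05 over all tested tiles), or 6.94%, against a background of 14.1% of the 1563 tested tiles in the whole pool. The 5 tiles called lower make 2.89%, against 4.16% in the pool. The other 156 tiles did not pass, 55 of them above 0 and 101 below. The log2 fold change of IP over Input lay between -0.5 and 0.5 in 132 tiles and between -1 and 1 in 159. Its median was -0.10, against -0.06 over all tested tiles. The count of calls depended on the libraries. It was 7, 7 and 6 higher and 2, 2 and 3 lower without Input library A, B and C, and 14, 13 and 16 higher and 14, 10 and 19 lower without IP library A, B and C. The whole pool moved with it, with 11.5%, 11.4% and 11.6% higher and 0.767%, 0.958% and 1.21% lower without Input library A, B and C, and 15.9%, 15.1% and 16.8% higher and 7.32%, 7.20% and 9.31% lower without IP library A, B and C.

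The balance of higher and lower calls depended on the scaling and the tool. With library size alone, which moves the median of all tiles by -0.23, 9 PRKDC tiles were called higher and 35 lower, where the whole pool gave 12.7% and 14.5%. With DESeq2, 14 tiles were called higher and 27 lower, where the whole pool gave 18.7% and 10.9%. Both settings kept the 5 lower calls. DESeq2 also kept all 12 higher calls, whereas library size alone lost PRKDC:25, PRKDC:94 and PRKDC:113. Scaled counts of IP and Input did not overlap in 15 PRKDC tiles that were higher (8.67%, against 19.7% of the pool) and in 41 that were lower (23.7%, against 20.6%).

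PRKDC:139 had the highest fold change. It held 516, 549 and 547 CPM in IP libraries A, B and C, against 116, 113 and 111 CPM in Input libraries A, B and C. All IP libraries were far above all Input libraries, and the spread within each group was small. The tile was 4.73-fold higher (log2 fold change 2.24 ± 0.19, SE, n = 3 against 3, adjusted p = 4.9e-05 in edgeR). PRKDC:140, the next number, held 522, 373 and 432 CPM in IP and 150, 134 and 103 CPM in Input. It was 3.43-fold higher (1.78 ± 0.25, adjusted p = 0.00115 in edgeR), again without overlap. The tiles on either side of this pair were close to Input. PRKDC:138 held 525 ± 92.2 CPM in IP and 518 ± 50.3 CPM in Input (SD), a log2 fold change of 0.02 ± 0.19. PRKDC:141 was at 1276 ± 376 and 954 ± 28.3 CPM, and its value of 0.42 ± 0.21 did not pass (adjusted p = 0.225 in edgeR), although it did without IP library C (0.67, adjusted p = 0.00892).

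A second adjacent pair was PRKDC:89 and PRKDC:90. PRKDC:89 held 1030, 1183 and 1131 CPM in IP, against 352, 316 and 381 CPM in Input, and was 3.19-fold higher (1.67 ± 0.15, adjusted p = 6.3e-05 in edgeR). PRKDC:90 held 1313, 1403 and 1373 CPM in IP, against 532, 534 and 474 CPM in Input, and was 2.65-fold higher (1.41 ± 0.12, adjusted p = 6.0e-05 in edgeR). In both tiles the lowest IP library was above 2 times the highest Input library. PRKDC:88 just before them held 264, 130 and 263 CPM in IP and 230, 211 and 175 CPM in Input, so its groups overlapped (0.09 ± 0.33).

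PRKDC:148 rose alone and from a high level. It held 4936, 4176 and 4622 CPM in IP, against 1720, 1632 and 1623 CPM in Input, and was 2.76-fold higher (1.46 ± 0.10, adjusted p = 1.5e-05 in edgeR). Its standard error was the smallest of all called PRKDC tiles. PRKDC:139, PRKDC:140, PRKDC:89, PRKDC:148 and PRKDC:90 were called higher under each of the 16 alternative settings of the tile test, among them each library left out in turn, and no other PRKDC tile was.

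The 7 other tiles called higher changed by less. PRKDC:165 held 550, 591 and 378 CPM in IP, against 260, 228 and 259 CPM in Input (2.03-fold, 1.02 ± 0.22). PRKDC:96 was 1.92-fold, PRKDC:25 1.86-fold, PRKDC:121 1.81-fold and PRKDC:153 1.76-fold higher. PRKDC:94 and PRKDC:113 were 1.39-fold and 1.36-fold higher, at 1289 ± 25.6 against 926 ± 72.1 CPM and at 3347 ± 400 against 2452 ± 87.1 CPM in IP against Input. The adjusted p values of these 7 tiles lay between 0.00283 and 0.0265 in edgeR, and IP and Input did not overlap in any of them. PRKDC:153 stayed called whichever 1 of the 6 libraries was left out. The other 6 lost their call without at least 2 of the 6 libraries, with adjusted p in edgeR of up to 0.127, for PRKDC:113 without Input library A.

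The tiles called lower were fewer, and 4 of the 5 had numbers between 8 and 20, where 13 tiles lie. PRKDC:8 fell most. It held 44.1, 23.3 and 52.2 CPM in IP, against 192, 183 and 163 CPM in Input, a log2 fold change of -2.17 ± 0.42 (adjusted p = 0.00719 in edgeR). PRKDC:18 held 192, 161 and 319 CPM in IP, against 654, 537 and 552 CPM in Input (-1.38 ± 0.28, adjusted p = 0.00951 in edgeR). In both tiles every IP library was below every Input library, with IP library C the highest of the 3. PRKDC:20 held 407, 290 and 448 CPM in IP, against 797, 804 and 828 CPM in Input (-1.08 ± 0.19, adjusted p = 0.00432 in edgeR). PRKDC:15 held 418, 460 and 342 CPM in IP, against 691, 626 and 698 CPM in Input (-0.72 ± 0.17, adjusted p = 0.0194 in edgeR). PRKDC:131, far along the numbers, was at 1163 ± 88.1 CPM in IP and 1544 ± 90.4 CPM in Input (SD), the smallest change of the 5 (-0.41 ± 0.11, adjusted p = 0.0357 in edgeR). PRKDC:18 and PRKDC:20 stayed called lower with any 1 library left out. The calls of PRKDC:15 and PRKDC:131 were lost without any 1 Input library (adjusted p up to 0.106 and 0.203 in edgeR), and that of PRKDC:8 without Input library A or B (0.0585 and 0.0530).

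Another 36 PRKDC tiles had every IP library below every Input library and still did not pass in edgeR, with adjusted p between 0.0632 and 0.578 and a median log2 fold change of -0.51. Over the whole pool, 20.6% of tested tiles had every IP library below every Input library, and 4.16% were called lower. Among PRKDC tiles these shares were 23.7% and 2.89%. The 3 highest tiles that did not pass were PRKDC:166 (0.75 ± 0.37), PRKDC:4 (0.71 ± 0.36) and PRKDC:134 (0.62 ± 0.19, adjusted p = 0.0560 in edgeR). PRKDC:166 follows the called PRKDC:165, at 225, 111 and 129 CPM in IP, against 100, 84.9 and 91.1 CPM in Input. The lowest that did not pass was PRKDC:99, which held 0 reads in all 3 IP libraries against 43, 35 and 15 in Input libraries A, B and C. A floor of 3 counts over the IP group would put it 14.0-fold lower (adjusted p = 0.0889 in edgeR), if reads were independent counts. That cannot be taken as a bound here. The Input reads of PRKDC:99 came from 2 barcodes, 1 in each library. Of PRKDC barcodes with a mean of 100 to 300 Input reads, 64.2% to 68.6% had no read in an IP library. PRKDC:170 held 0, 35.1 and 40.8 CPM in IP, against 113, 94.9 and 105 CPM in Input (-2.04 ± 1.53), with the empty IP library A far from B and C. PRKDC:161 held 25.7, 94.5 and 86.3 CPM in IP, against 151, 177 and 220 CPM in Input (-1.41 ± 0.51, adjusted p = 0.102 in edgeR). Each of these tiles except PRKDC:166 passed without 1 IP library. In edgeR the adjusted p was 0.0325 for PRKDC:170 and 0.0454 for PRKDC:161 without IP library A, and 0.0358 for PRKDC:4 without IP library B. Without IP library C it was 0.00889 for PRKDC:134 and 0.0361 for PRKDC:99. DESeq2 also passed PRKDC:134, PRKDC:161 and PRKDC:99 (adjusted p = 0.00344, 0.0125 and 0.0473).

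The most abundant PRKDC tiles were recovered in proportion to Input. PRKDC:145 held 5742, 6900 and 4265 CPM in IP, against 6078, 6243 and 5320 CPM in Input (-0.06 ± 0.17). PRKDC:152 was at 3860 ± 649 CPM in IP and 4023 ± 359 CPM in Input (SD), and PRKDC:59 at 4380 ± 616 and 4017 ± 387 CPM. In each of the 3 tiles the groups overlapped. Across the 173 tiles, mean Input levels ran from 0.925 CPM (PRKDC:99) and 5.92 CPM (PRKDC:98) to 5880 CPM, with a median of 671 CPM. The precision followed this level: the median standard error of the log2 fold change was 0.34 in the 58 tiles of up to 459 CPM, 0.19 in the next 57 and 0.14 in the 58 tiles from 925 CPM upwards. Calls came from all levels, with 6, 2 and 4 higher and 1, 3 and 1 lower in these 3 classes of rising Input level.

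Most higher calls had later tile numbers. Dividing the numbers into 3 stretches after the values were seen, tiles 1 to 58 held 1 tile called higher and 4 called lower, tiles 59 to 115 held 5 and 0, and tiles 116 to 173 held 6 and 1. Median Input levels in these stretches were 633, 612 and 726 CPM and median log2 fold changes -0.17, -0.06 and -0.07. The difference between stretches was not tested. The 12 higher tiles fell into 10 separate runs, of which PRKDC:89 with PRKDC:90 and PRKDC:139 with PRKDC:140 were the runs longer than 1 tile. Of the 8 tiles numbered 89 to 96, 4 were called higher. Among directly consecutive numbers the log2 fold changes had a Pearson correlation of 0.26 and a Spearman correlation of 0.14 (170 pairs, without PRKDC:99). At a distance of 2 numbers these were -0.03 and -0.01. These correlations describe tiles read in the same 6 libraries.

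Averaged over 5 consecutive numbers, few stretches stayed high. Of 169 such windows, 35 had a mean log2 ratio of IP to Input above 0 and 6 above 0.5, and the median window was at -0.18. The highest windows that did not overlap each other were tiles 138 to 142 (0.93, SD 0.18 over the IP libraries, 2 of 5 tiles called higher), tiles 89 to 93 (0.66, SD 0.08, 2 called higher) and tiles 145 to 149 (0.29, SD 0.08, 1 called higher). Within tiles 89 to 93, PRKDC:91, PRKDC:92 and PRKDC:93 were at 0.04, 0.09 and 0.12. The lowest windows held no call. Tiles 97 to 101 (-1.61, SD 0.92) include PRKDC:98 and PRKDC:99, which were scarce in Input. Tiles 167 to 171 (-1.41, SD 1.08) include PRKDC:170, which had no read in IP library A.

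The barcodes of a tile are separate oligonucleotides with the same tile, and many of them were missing from IP. Of the 3806 PRKDC barcodes, 39.8%, 38.4% and 34.4% had no read in IP libraries A, B and C, against 3.81%, 3.42% and 3.26% in Input libraries A, B and C (95% Wilson intervals of at most 1.55 points to either side). The means were 37.5 ± 2.79% in IP and 3.49 ± 0.284% in Input (SD, n = 3 each, exact permutation p = 0.1). Over the 3 comparisons tested this way, the adjusted exact p was 0.15 for the share of reads and for missing barcodes and 1 for the scaled sum. The gap was as large at equal depth. With every library thinned to 15986799 reads the shares were 39.8%, 38.4% and 34.4% in IP and 3.94%, 3.47% and 3.44% in Input. Over all source RNAs, 51.5%, 49.1% and 46.8% of barcodes had no read in IP, against 9.40%, 9.16% and 9.30% in Input.

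The share of barcodes missing from IP was larger where Input reads were fewer. Of the 516 barcodes with a mean of 100 to 300 Input reads, 64.2% to 68.6% had no read in an IP library, of the 1192 with 300 to 1000 Input reads 40.4% to 48.5%, and of the 1770 with 1000 or more 11.98% to 17.6%. Among 3237 barcodes with at least 100 reads in every Input library, 1468 were read in all 3 IP libraries, 905 in 2, 585 in 1 and 279 in none. Barcodes with a read in the given library had a median of 39.9 to 42.8 CPM in IP, against 26.9 to 27.6 CPM in Input. These medians cover different barcodes, as those missing from IP were more often scarce in Input. The median tile was thus read through 13 to 16 of its 22 barcodes in an IP library, with 17.3% to 20.1% of its reads in 1 barcode, against 22 barcodes and 9.89% to 10.2% in Input. How far such gaps set the spread between IP libraries, and with it the calls, was not tested.

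The leading tiles differed in how many barcodes carried them. PRKDC:148 was read through 20 barcodes in every library. Averaged over the libraries all 20 were higher in IP, from 2.001-fold to 3.71-fold with a median of 2.70-fold. Single libraries could differ: barcode 13 had 47 reads in IP library B, against 1967, 2474 and 2255 in Input libraries A, B and C. PRKDC:90 was read through 22, 19 and 22 barcodes in IP, and 21 of 22 were higher. PRKDC:89 was read through 18, 16 and 17, and 20 of 21 were higher. PRKDC:139 was read through 13, 12 and 15 in IP, against 20, 21 and 21 in Input. Its barcodes were uneven: 21 of 22 were higher on average, with a median of 3.66-fold, but barcode 1 was 26.2-fold higher and barcode 20 had no IP read against 321, 405 and 395 reads in Input. PRKDC:140 was the least complete of the 5, with 12, 10 and 11 barcodes read in IP. Of its 21 barcodes with enough reads, 5 were absent from all IP libraries and 16 were higher.

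The lower tiles also differed in their barcodes, and PRKDC:8 was carried by very few in IP. In this tile 18 of 22 barcodes had no IP read at all, though the tile held 6097 to 6344 reads in each Input library and all 22 barcodes were read there. IP library A took 637 of its 707 reads of this tile from barcode 5, IP library B all 338 from barcode 20, and IP library C 716 of 869 from barcode 12. The leading barcode was different in each library. Averaged over the libraries, those 3 were at 1.87-fold, 1.14-fold and 1.36-fold of Input. They were picked by their IP reads, a choice that favours values above Input. PRKDC:170, which did not pass, showed the same form, with 16 of 20 barcodes absent from IP. PRKDC:18 was read through 7, 6 and 12 barcodes in IP, against 21 in every Input library, and 18 of 21 were lower. PRKDC:15 was read through 12, 9 and 13, with 18 of 22 lower, PRKDC:20 through 12, 8 and 15, with 20 of 22 lower, and PRKDC:131 through 19, 15 and 21, with 17 of 22 lower. Counting only barcodes read in all 6 libraries, a choice that favours barcodes recovered in IP, PRKDC:18 turned to 0.71 (adjusted p = 0.329 in edgeR). In that fit 6 of 155 PRKDC tiles were called higher and 19 lower, where the whole pool gave 216 (18.35%) and 102 (8.67%) of 1177. It kept 1 of the 5 lower calls, that of PRKDC:131. PRKDC:8 was not tested in that fit, as none of its barcodes was read in all 6 libraries. The other 18 tiles called lower there were not called lower over all barcodes.

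Tests of single barcodes gave mostly lower calls. Of 3598 PRKDC barcodes tested, edgeR called 10 higher (0.278%, against 1.99% of all barcodes in the pool) and 471 lower (13.1%, against 18.1%). PRKDC:148 held 6 of the 10, PRKDC:89 held 2, and PRKDC:139 and PRKDC:121 held 1 each. PRKDC:121 also had 4 barcodes called lower, PRKDC:89 and PRKDC:139 had 1 each, and PRKDC:148 had 0. Among other tiles called higher, PRKDC:165 and PRKDC:96 had 3 barcodes called lower each and PRKDC:94 had 1, with 0 called higher. No barcode of PRKDC:90 was called in either direction, although the tile was 2.65-fold higher. PRKDC:140 had 0 barcodes called higher and 4 lower. Fits on barcodes 1 to 11 alone and on barcodes 12 to 22 alone, chosen after the data were seen, each called the 5 leading tiles higher. They called 8 and 7 PRKDC tiles higher and 3 and 4 lower in all, where the whole pool gave 10.8% and 10.4% higher and 3.41% and 1.93% lower. Of the 5 tiles called lower over all barcodes they kept 1 and 2, and neither fit kept PRKDC:8, PRKDC:15 or PRKDC:131.

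LNPEP and TAOK1, the mRNAs nearest to PRKDC in their number of tiles, had a wider range of values. Of the tested tiles, 32 of 156 LNPEP tiles (20.5%) and 20 of 152 TAOK1 tiles (13.2%) were called higher, against 14.1% of the pool. Tiles called lower made 6.41% in LNPEP and 2.63% in TAOK1, against 2.89% in PRKDC and 4.16% of the pool. The highest folds were 104 in LNPEP and 21.4 in TAOK1, against 4.73 in PRKDC. The range between quartiles of the log2 fold change was 0.44 in PRKDC, against 1.40 in LNPEP and 0.96 in TAOK1 and 0.73 over all tested tiles. A log2 fold change above 1 was seen in 3.47% of PRKDC tiles and 14.8% of all. PRKDC tiles were also more abundant in Input, with a median of 671 CPM against 247 CPM for LNPEP and 251 CPM for TAOK1, and their median standard error was smaller (0.20 against 0.28 and 0.27). The differences between source RNAs were not tested.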

How the data were processed

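The authors deposited raw read counts per tile and barcode, per the file headers and the values, which were whole numbers with unequal column totals. Per the labels, amplicon cDNA was sequenced single-end. The program that assigned reads is not given in the sources used here. Column letters could not be matched to the replicate numbers of the labels, so columns entered by group, without pairing. Whether replicates came from separate cultures is not labelled. The p-values therefore speak of library-to-library spread, possibly technical.

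Counts were summed over barcodes and all tiles of the pool were fitted together in R 4.3.3 with edgeR 4.0.16 (filterByExpr, TMM, robust quasi-likelihood F test, Benjamini-Hochberg). All 173 PRKDC tiles passed the filter. The standard error is the absolute log2 fold change over the square root of F. CPM uses TMM-scaled libraries, and windows use log2 CPM with a prior count of 2. A barcode counted as higher by mean CPM, among those with at least 30 reads over both groups. Exact permutation tests used scipy 1.17.1. The fit was also run on simulated tile counts, with equal dispersion in IP and Input and no missing barcodes. That run therefore does not cover the gaps seen in IP. Chi-square statistics per degree of freedom of 81.7 to 618 between libraries of a group, over PRKDC tiles, showed none to be a copy.

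Tiles named are all calls, the neighbours of the 3 highest, the 3 highest and 3 lowest that did not pass, the 3 most abundant, those without an IP read, and the extreme windows. PRKDC:91, PRKDC:92, PRKDC:93 and PRKDC:98 were named after their values were seen. PRKDC was chosen, and tests and rules were written, with earlier results of these data known. The other 4 pools were not used.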

Additional observations from a re-analysis of the deposited data

How the results depend on the processing

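The tile test was repeated under 16 other settings, 2 of them (each set of 11 barcodes) added after the data were seen. RLE size factors, a minimum mean count of 50, no filter and leaving out the barcode of most reads changed neither count of calls by over 1.5 times. Without the barcode of most reads, however, the lower calls of PRKDC:15 and PRKDC:131 were lost. The number called higher was 12 and ranged from 6 to 16 with 1 library left out. It was 6 with barcodes read in all 6 libraries and 7 with barcodes 12 to 22. The number called lower was 5 and ranged from 2 to 19 with 1 library left out. It was 35 with library size only, 27 with DESeq2, 19 with barcodes read in all 6 libraries, 3 with barcodes 1 to 11 and 471 of 3598 barcodes with 1 test per barcode. The cause was not tested beyond the barcode values given above. The median log2 fold change of -0.10 moved to -0.33 with library size only. With the column letter as a replicate block 12 tiles were higher and 9 lower, where the whole pool gave 13.8% and 5.05%. Libraries of the same letter did not deviate together (correlations of -0.04, 0.02 and -0.01 over 1555 tiles), so nothing is read from this fit.

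Tiles near 0 turned in sign without passing. PRKDC:138 was at -0.22 with library size only, -0.24 with barcodes read in all 6 libraries and -0.37 with barcodes 1 to 11, and at -0.10 to 0.19 with 1 library left out. PRKDC:88 was at -0.14 with library size only, -0.11 with barcodes 12 to 22 and -0.055 to 0.36 with 1 library left out. PRKDC:59 was at -0.11 with library size only and -0.26 with barcodes read in all 6 libraries. Without the barcode of most reads PRKDC:145 and PRKDC:152 were at 0.012 and 0.020, and with 1 library left out at -0.23 to 0.14 and -0.15 to 0.056. PRKDC:18 turned to 0.71, as above. Windows of 3 and 9 numbers gave 1.47 and 0.41 around tile 140, 0.51 and 0.29 around tile 91, and 0.52 and -0.0053 around tile 147. The shares of reads and of missing barcodes kept their direction in every setting tried.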
